A study of Mus musculus with 5 samples.

Results

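Efferocytosis is the removal of dying cells by phagocytes. A dying cell exposes phosphatidylserine on its outer membrane, and phagocytes bind it either directly, through receptors such as the products of Timd4 (TIM-4), Stab1 (stabilin-1) and Cd300lf, or through soluble bridging proteins. Gas6 and protein S (Pros1) bridge phosphatidylserine to the receptor tyrosine kinases Mertk and Axl, of the TAM family, and Mfge8 bridges it to integrins. In the injured kidney these genes are studied for the clearance of dying tubule cells. The 8 genes described here, Mertk, Axl, Stab1, Cd300lf, Timd4, Gas6, Pros1 and Mfge8, were taken by symbol from the 28692 genes listed in the deposited matrices. The values are counts of unique molecular identifiers (UMIs), 1 per captured RNA molecule, summed over marker-gated cell classes of each library.

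The data came from kidneys of C57/BL6 mice aged 8 weeks, with no genetic change named in the labels, in a model of unilateral ureteric obstruction (UUO) that was later reversed. The groups were sham surgery (day 0), UUO for 2 days, UUO for 7 days, and a reversed group taken 7 days after the obstruction was relieved (day 14 of the experiment). Each group was 1 droplet library of live sorted cells from 3 pooled mice, so animals cannot be separated. There is therefore no replicate check: the intervals below are 95% counting intervals of the UMIs (exact Poisson for a level, exact binomial for a share or a ratio), they cover counting error only, and no p-value can be given for any comparison.

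The 4 libraries held between 2739 and 5938 cell barcodes and between 18649637 and 30462683 UMIs, and pairs of libraries shared 16 to 39 barcodes. The sham library stood apart. Its cells had a median of 2480.5 UMIs and 40.6% mitochondrial UMIs, against 4709 to 5668 UMIs and 3.00% to 16.2% in the other libraries. Macrophage-like cells, gated on markers that hold none of the 8 genes, numbered 30 in sham, 232 at day 2, 1656 at day 7 and 397 in the reversed library, with 87310, 3038018, 10730357 and 2795041 UMIs in all. A count of 3 UMIs, taken as the floor, equals 34.4 CPM (the gene's UMIs per 1000000 UMIs of the class) in the sham macrophage-like cells, so levels below that were not measurable in that group. The summed level of the proximal tubule marker list in macrophage-like cells was 779 CPM in sham against 82.9 to 365 CPM in the other libraries. The levels in T cell-like cells, which should lack the receptors, are given beside the results as a background, and how much of that background is free RNA was not measured. It is not the same in all classes: at day 2 Axl was 24.2 CPM (12.1 to 43.4) in T cell-like and 2.47 CPM (0.99 to 5.09) in proximal tubule-like cells. The part of mitochondrial content, depth and tubule RNA in the differences from sham was not tested, except where a value under a limit of 20% mitochondrial UMIs is given.

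The promoters of 2 of the genes are shown because their cell class patterns below lie farthest apart. Cd300lf had high levels in neutrophil-like and monocyte-like cells. Gas6 had high levels in endothelium-like and tubule-like cells and low levels in monocyte-like cells. Each stretch runs from 100 bases before to 10 bases after the RefSeq start (GRCm38.p6), at chr11:115133983-115134092 (minus strand) for Cd300lf and chr8:13494526-13494635 (minus strand) for Gas6. Capitals mark the Ets core GGAAGT or the GC box GGGCGG on either strand.
Cd300lf: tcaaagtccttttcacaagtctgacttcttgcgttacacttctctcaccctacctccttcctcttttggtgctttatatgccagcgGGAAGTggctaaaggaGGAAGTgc
Gas6: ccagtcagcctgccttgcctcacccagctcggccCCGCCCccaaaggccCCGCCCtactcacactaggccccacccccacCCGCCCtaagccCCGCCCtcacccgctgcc
In the wider window of 300 bases, 250 before to 50 after the start, Cd300lf held 2 Ets cores, 1 of them within the longer PU.1-type form GAGGAAGT, and 0 GC boxes. Gas6, Mertk, Mfge8 and Pros1 held 4 GC boxes each and 0 Ets cores, Axl held 2 GC boxes, Timd4 held 1 Ets core, and Stab1 held none of these letters. Of all 32851 RefSeq windows of that length, 23.8% held GGAAGT, 3.2% held GAGGAAGT and 35.7% held GGGCGG on either strand. A match is a run of letters and not a measured site.

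**Figure D1:**
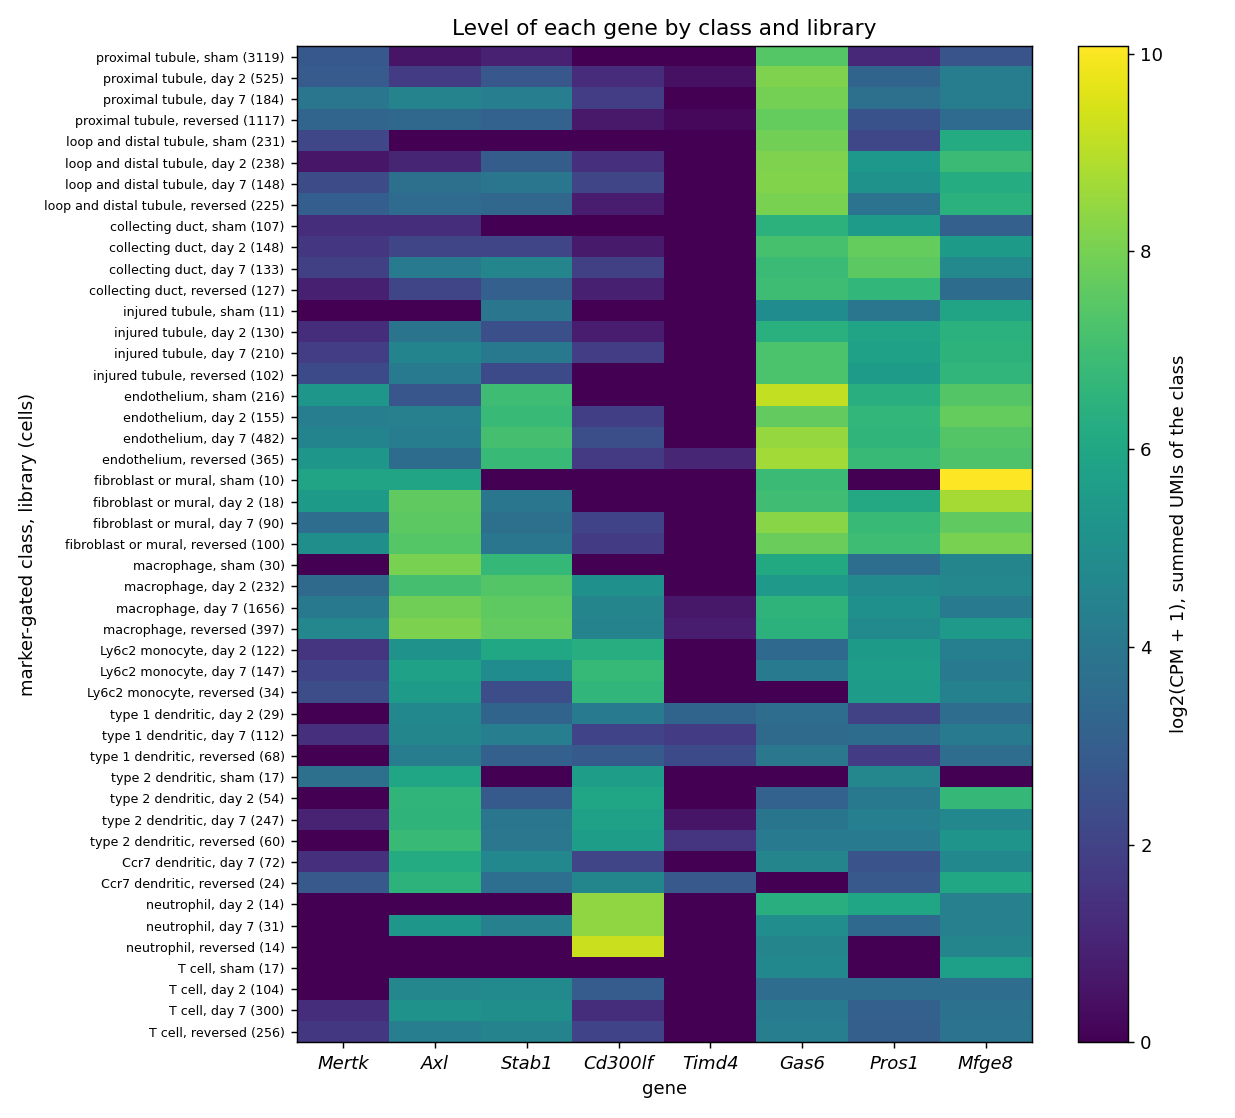
Level of each of the 8 genes (columns) as log2(CPM + 1) of the summed UMIs. Rows are the drawn marker-gated classes in each library with at least 9 cells, with the number of cells. Podocyte-like, patrolling monocyte-like, plasmacytoid dendritic-like, NK cell-like and B cell-like rows are not drawn. Axl and Stab1 are high in the macrophage-like rows, Cd300lf in the neutrophil-like and Ly6c2 monocyte-like rows and Gas6 in the tubule-like and endothelium-like rows, and Timd4 is dark throughout.

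Mertk, the TAM receptor best known for engulfment by macrophages (ENSMUSG00000014361, chromosome 2, 128698956 to 128802894, plus strand, GRCm38), was sparse in macrophage-like cells, with a level that was successively higher at day 2, day 7 and after reversal. It had 0 UMIs in sham (interval up to 42.3 CPM), 31 UMIs or 10.2 CPM (6.93 to 14.5) at day 2, 169 UMIs or 15.8 CPM (13.5 to 18.3) at day 7, and 69 UMIs or 24.7 CPM (19.2 to 31.2) in the reversed library. The reversed level was the highest of the 3 injured libraries and its interval did not meet that of day 7, while sham was under its floor and cannot be placed. The log2 ratio was 0.58 (0.06 to 1.15) between day 7 and day 2 (day 7 higher) and 0.62 (0.21 to 1.01) between the reversed library and day 7 (reversed higher). T cell-like cells had 0, 0, 2 and 2 UMIs of Mertk, at most 2.07 CPM. Cells with at least a fixed number of UMIs were also thinned to that number, and the share of cells with a UMI was averaged over all possible draws. Thinned to 1000 UMIs, 1.17%, 1.69% and 2.31% of macrophage-like cells had a UMI of Mertk at day 2, day 7 and reversal, and thinned to 2000 UMIs 2.29%, 3.30% and 4.55%, in the order of the CPM at both depths. Unthinned the shares were 9.91%, 9.12% and 14.4%.

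Mertk was not restricted to macrophage-like cells. Endothelium-like cells had 39.7 CPM in sham (24.9 to 60.1), 18.8 at day 2 (10.3 to 31.5), 22.6 at day 7 (16.6 to 30.03) and 39.5 in the reversed library (30.7 to 49.9), so the reversed level was above day 7 and beside sham. Podocyte-like cells held the highest levels, 149, 204, 161 and 54.3 CPM, from only 9 to 11 cells per library and 4 to 22 UMIs. Of all Mertk UMIs in the kept cells, macrophage-like cells held 0% in sham, 28.2% at day 2, 55.4% at day 7 and 27.4% in the reversed library, while proximal tubule-like cells held 58.1%, 16.4%, 5.6% and 21.8%. In sham that proximal tubule share came from 3119 cells at a level of 5.93 CPM.

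Axl, the TAM receptor that binds Gas6 (ENSMUSG00000002602, chromosome 7, 25757273 to 25788705, minus strand), was measured in macrophage-like cells of all 4 libraries and was lowest there at day 2. The levels were 263 CPM in sham (167 to 395, 23 UMIs), 139 at day 2 (126 to 153, 421 UMIs), 239 at day 7 (229 to 248, 2560 UMIs) and 269 in the reversed library (251 to 289, 753 UMIs). Day 2 stood below the other 3 libraries, the day 7 and reversed intervals lay just apart, and the wide sham interval met both. The log2 ratio was -0.92 (-1.52 to -0.25) for day 2 against sham, 0.78 (0.63 to 0.93) for day 7 against day 2, 0.18 (0.06 to 0.29) from day 7 to reversal and 0.03 for reversed against sham. Under the limit of 20% mitochondrial UMIs the first of these was -1.04, and with all phagocyte classes pooled it was -0.20. With that pooling the reversed level of 185.7 CPM (173.4 to 198.5) lay above the sham level of 116.5 CPM (77.39 to 168.3). T cell-like cells had 0, 24.2, 34.5 and 18.7 CPM, and the macrophage-like level was 5.72-fold (3.16 to 11.5), 6.92-fold (5.17 to 9.48) and 14.4-fold (9.07 to 24.5) that of T cell-like cells at day 2, day 7 and reversal.

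The share of macrophage-like cells with a UMI of Axl depended on depth. Thinned to 1000 UMIs per cell it was 25.4%, 13.04%, 20.8% and 24.4% in sham, day 2, day 7 and reversed, and the T cell-like share was 0%, 2.15%, 3.23% and 1.41%. Unthinned it was 56.7%, 63.4%, 69.4% and 76.8% in macrophage-like cells with median depths of 2802.5, 12313, 5959 and 6214 UMIs, while T cell-like cells had medians of 1738, 3585, 3614.5 and 3162.5 UMIs. The thinned shares thus kept day 2 lowest, as the CPM did, and the unthinned shares put sham lowest. In sham 0 of 17 T cell-like cells had a UMI, where the floor of 3 counts equals 17.6% and the exact upper bound is 19.5%.

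Axl was also carried by other classes. Fibroblast- or mural-like cells had 58.4 CPM in sham (2 UMIs), 198 at day 2 (131 to 288), 184 at day 7 (158 to 212) and 172 in the reversed library (145 to 203), levels of the same size in the last 3. Podocyte-like cells had 132, 130, 118 and 67.8 CPM in sham, day 2, day 7 and reversed, from only 9 to 11 cells per library and 5 to 14 UMIs. Type 2 dendritic-like cells had between 60.4 and 110 CPM in the 4 libraries, and Ly6c2 monocyte-like cells, recently recruited cells by their marker, had 34.3, 53.2 and 45.7 CPM from day 2 on. Proximal tubule-like cells had 0.49 CPM in sham, 2.47 at day 2, 21.5 at day 7 and 9.33 in the reversed library (17.1 under the limit of 20% mitochondrial UMIs). The last values lie below the T cell-like values of 34.5 and 18.7 CPM in the same libraries, and they are not read as expression by these cells. The T cell-like and proximal tubule-like values already differed at day 2, so this comparison does not decide their source, which was not tested.

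Stab1, a scavenger receptor of tissue macrophages and some endothelia that binds phosphatidylserine (ENSMUSG00000042286, chromosome 14, 31139013 to 31168641, minus strand), was shared between macrophage-like and endothelium-like cells. In macrophage-like cells it had 103 CPM in sham (47.1 to 196, 9 UMIs), 164 at day 2 (150 to 179), 193 at day 7 (185 to 201) and 200 in the reversed library (184 to 217). The day 7 and reversed levels were above day 2 and did not differ from each other beyond counting error. The log2 ratio was 0.24 (0.10 to 0.38) from day 2 to day 7 and 0.05 from day 7 to reversal. Against sham it was 0.66 (-0.27 to 1.79) at day 2 and 0.95 (0.02 to 2.08) after reversal, values that rest on 9 sham UMIs and became 1.13 and 1.44 without the cell with the most Stab1 UMIs in each library. With all phagocyte classes pooled, Stab1 was 37.4, 111, 136 and 125 CPM in sham, day 2, day 7 and reversed, a larger difference from sham. T cell-like cells had 0, 26.4, 31.5 and 21.8 CPM of Stab1, with macrophage-like levels 6.19-fold, 6.13-fold and 9.18-fold higher from day 2 on.

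In endothelium-like cells Stab1 was 123 CPM in sham (95.2 to 155), 114 at day 2 (91.0 to 141), 136 at day 7 (120 to 152) and 114 in the reversed library (99.1 to 131), intervals that all met. Endothelium-like cells held 71.6% of the Stab1 UMIs in sham and 10.3%, 10.3% and 21.6% later, while macrophage-like cells held 9.5%, 60.2%, 75.3% and 60.5%. Ly6c2 monocyte-like cells had 65.7 CPM at day 2 (51.0 to 83.5), 28.7 at day 7 (19.1 to 41.4) and 4.15 in the reversed library (1 UMI in 34 cells). The last 2 are at or below the T cell-like levels of those libraries.

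Cd300lf, an inhibitory receptor of myeloid cells that binds phosphatidylserine (ENSMUSG00000047798, chromosome 11, 115116214 to 115133992, minus strand), was lower in macrophage-like cells than in neutrophil-like, Ly6c2 monocyte-like and type 2 dendritic-like cells. Macrophage-like cells had 0 UMIs in sham, 31.9 CPM at day 2 (25.9 to 39.0), 23.0 at day 7 (20.2 to 26.1) and 21.5 in the reversed library (16.4 to 27.6), with a log2 ratio of -0.46 (-0.78 to -0.11) for day 7 against day 2 and -0.10 from day 7 to reversal. Ly6c2 monocyte-like cells had 76.5 CPM (60.5 to 95.5), 107 (87.0 to 129) and 99.6 (63.8 to 148) in the same 3 libraries. Neutrophil-like cells had 343 CPM (200 to 549), 336 (233 to 469) and 621 (409 to 903), from 14, 31 and 14 cells. Type 2 dendritic-like cells had 60.0 CPM (42.5 to 82.3), 54.0 (44.6 to 64.9) and 49.1 (32.1 to 71.9), while type 1 dendritic-like cells had 16.9, 3.10 and 6.27 CPM. Patrolling monocyte-like cells had 77.7 CPM (28.5 to 169), 50.9 (20.5 to 105) and 13.6 (0.34 to 75.6), from 15 to 25 cells, which cannot be placed against macrophage-like cells in every library. At day 7, thinned to 1000 UMIs, 9.07% of 18 plasmacytoid dendritic-like cells had a UMI of Cd300lf, beside 9.69% of Ly6c2 monocyte-like cells. The order neutrophil-like, then Ly6c2 monocyte-like, then macrophage-like held in each of the 3 libraries, and T cell-like cells had 1.499 to 6.61 CPM there.

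Timd4, the phosphatidylserine receptor of some resident macrophages (ENSMUSG00000055546, chromosome 11, 46810800 to 46844332, plus strand), had few UMIs in any class. Macrophage-like cells had 0 UMIs in sham and at day 2, 6 UMIs in 6 cells at day 7 (0.56 CPM) and 2 UMIs in 2 cells in the reversed library (0.72 CPM). Type 1 dendritic-like cells had 3 UMIs in 1 of 29 cells at day 2, 3 UMIs in 3 of 112 cells at day 7 and 3 UMIs in 3 of 68 cells in the reversed library. In sham the floor of 34.4 CPM does not allow a statement on macrophage-like cells.

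**Figure D2:**
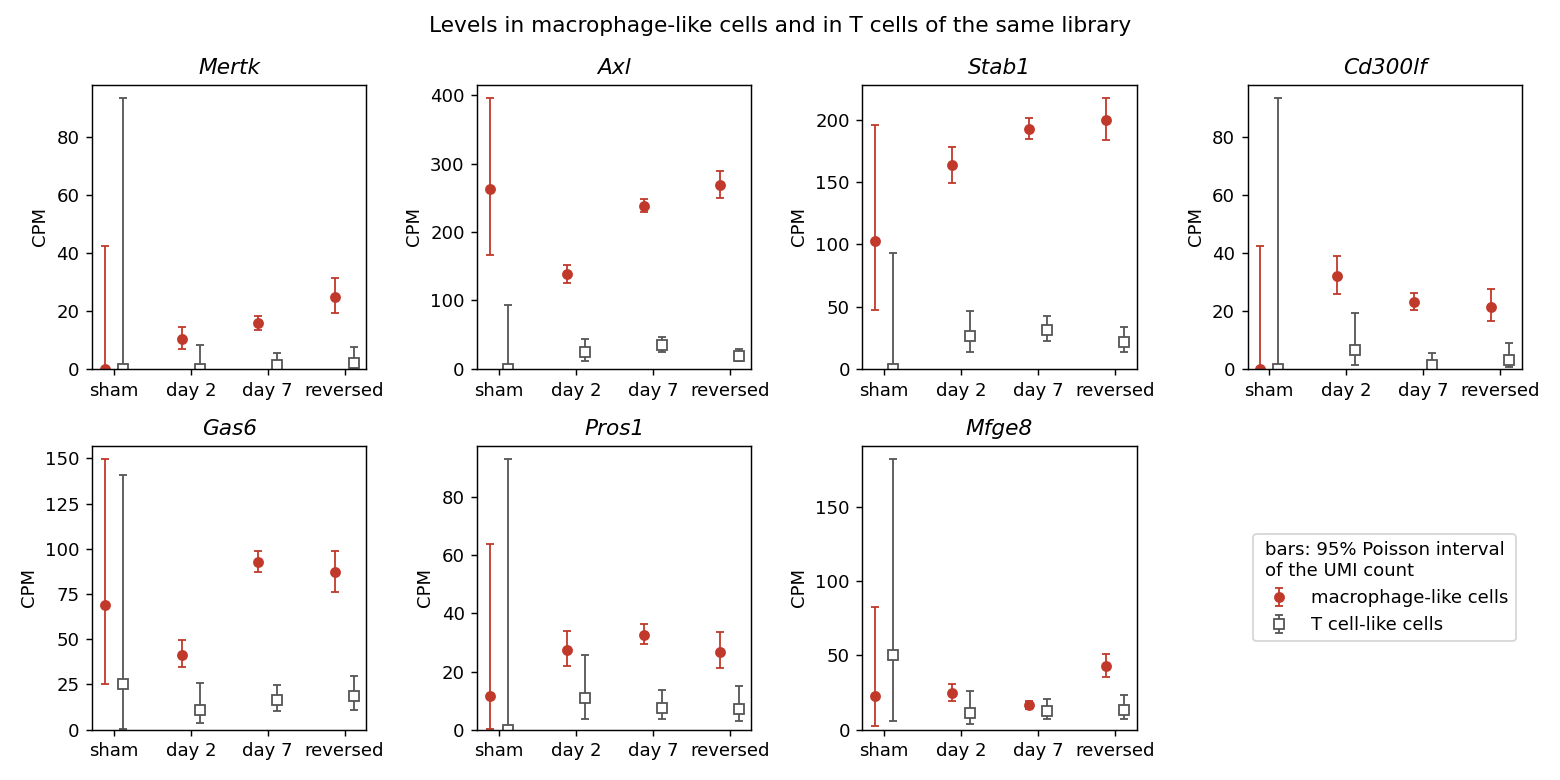
Level of 7 of the genes (CPM, linear axis from 0) in macrophage-like cells (red circles) and T cell-like cells (open squares) of each library, with 95% Poisson intervals of the UMI count. Axl and Gas6 are lower at day 2 than at day 7, Mertk is highest in the reversed library among those after injury, and the sham intervals are wide.

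Gas6, the ligand of Axl and Mertk (ENSMUSG00000031451, chromosome 8, 13465374 to 13494490, minus strand), was higher in macrophage-like cells at day 7 than at day 2. The levels were 68.7 CPM in sham (25.2 to 150, 6 UMIs), 41.5 at day 2 (34.6 to 49.4), 92.6 at day 7 (87.0 to 98.6) and 86.9 in the reversed library (76.4 to 98.6). Day 2 was below day 7 and the reversed library, which met in their intervals, and sham met all 3. The log2 ratio was 1.14 (0.88 to 1.42) for day 7 against day 2, with values just under 2-fold for a stricter gate (0.98) and a pseudocount of 10 CPM (1.00). It was -0.72 (-1.84 to 0.74) for day 2 against sham and -0.09 for reversed against day 7. With all phagocyte classes pooled the order of day 2 and sham turned, at 28.9 against 25.0 CPM. T cell-like cells had 25.2, 11.02, 16.5 and 18.7 CPM, with macrophage-like levels 3.76-fold (1.57 to 11.8), 5.62-fold (3.69 to 9.01) and 4.66-fold (2.88 to 7.99) higher from day 2 on. Thinned to 1000 UMIs, 6.68%, 3.69%, 8.55% and 8.89% of macrophage-like cells had a UMI of Gas6 in sham, day 2, day 7 and reversed, and thinned to 2000 UMIs 18.2%, 6.58%, 15.1% and 15.5%. The sham share was above or below those of day 7 and reversal depending on the depth and rests on 6 UMIs. It covers 30 cells at 1000 UMIs but only the 22 cells with enough UMIs at 2000, so the cells differ as well as the depth. Day 2 was below day 7 and the reversed library at both depths. T cell-like cells had shares of 3.38%, 0.66%, 1.58% and 2.01% at 1000 UMIs.

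Endothelium-like cells had a higher Gas6 level than macrophage-like cells in every library, and their lowest level was at day 2. They had 572 CPM in sham (510 to 638), 198 at day 2 (168 to 233), 354 at day 7 (329 to 380) and 412 in the reversed library (382 to 443). All 4 intervals were apart, with the lowest level at day 2 and the reversed level still under sham. The log2 ratio was -1.52 (-1.81 to -1.24) for day 2 against sham, 0.83 (0.58 to 1.10) for day 7 against day 2, 0.22 (0.07 to 0.37) from day 7 to reversal and -0.47 (-0.66 to -0.28) for reversed against sham. Under the limit of 20% mitochondrial UMIs the levels were 578, 201, 354 and 420 CPM. The endothelium-like level was 18.0-fold (7.54 to 56.3), 21.5-fold (14.1 to 34.4) and 22.1-fold (13.9 to 37.4) that of T cell-like cells at day 2, day 7 and reversal, while sham T cell-like cells had 1 UMI.

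Proximal tubule-like cells were in the opposite order for day 2 and sham: Gas6 was 171 CPM in sham (163 to 179), 277 at day 2 (258 to 297), 252 at day 7 (224 to 283) and 205 in the reversed library (194 to 217), a log2 ratio of 0.69 (0.57 to 0.82) for day 2 against sham. Loop and distal tubule-like cells had 240 to 287 CPM in the 4 libraries, and collecting duct-like cells had 87.4, 141, 117 and 122 CPM. In fibroblast- or mural-like cells the day 7 level of 314 CPM included 81 of 311 UMIs from 1 cell and was 236 CPM (206 to 268) without it. Proximal tubule-like cells held 72.0% of the Gas6 UMIs of kept cells in sham, 33.9% at day 2, 8.1% at day 7 and 37.1% in the reversed library, while macrophage-like cells held 0.2%, 5.4%, 27.3% and 6.9%. These shares follow the number of cells of each class that entered the library as well as the level per cell.

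Pros1, which encodes protein S, an anticoagulant that is also a ligand of Mertk (ENSMUSG00000022912, chromosome 16, 62854307 to 62929346, plus strand), was highest in collecting duct-like cells at day 2 and day 7. Podocyte-like cells had 185 CPM (113 to 286, 11 cells) at day 2 and 140 CPM (74.4 to 239, 9 cells) at day 7, intervals that met theirs. In collecting duct-like cells Pros1 was 46.0 CPM in sham (31.2 to 65.2, 31 UMIs), 209 at day 2 (186 to 233, 316 UMIs), 184 at day 7 (159 to 211, 199 UMIs) and 101 in the reversed library (83.5 to 120, 121 UMIs). The day 2 and day 7 levels met, the reversed level lay under both, and sham was the lowest. The log2 ratio was 2.16 (1.63 to 2.74) for day 2 against sham, -0.86 (-1.19 to -0.53) from day 7 to reversal and 1.11 (0.54 to 1.73) for reversed against sham. Under the limit of 20% mitochondrial UMIs the sham level was 9.47 CPM (1.15 to 34.2), from 2 UMIs in 27 cells and so under its own floor of 14.2 CPM, and the levels were 186, 184 and 115 CPM at day 2, day 7 and reversal. The size of the difference from sham therefore depends on the limit, while its direction was the same with both. Collecting duct-like cells had 24.6-fold (16.2 to 39.0), 15.2-fold (8.86 to 28.4) and 21.2-fold (14.1 to 32.8) the Pros1 level of proximal tubule-like cells at day 2, day 7 and reversal.

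Loop and distal tubule-like cells had the same order at lower levels, with 3.46 CPM of Pros1 in sham (3 UMIs), 40.1 at day 2, 34.2 at day 7 and 13.4 in the reversed library, and log2 ratios of 3.20 (1.67 to 5.49) for day 2 against sham and -1.29 (-2.08 to -0.52) for reversed against day 7. The lower reversed level did not hold under the limit of 20% mitochondrial UMIs, where the levels were 39.7 CPM (28.6 to 53.6) at day 2, 41.2 (30.3 to 54.6) at day 7 and 33.5 (20.7 to 51.2) after reversal, and sham had 1 UMI in 20 cells. Thinned to 1000 UMIs, 0.26%, 3.86%, 3.64% and 1.06% of the cells had a UMI of Pros1 in sham, day 2, day 7 and reversed. Endothelium-like cells had 81.1 CPM (59.2 to 109), 101 (79.1 to 126), 95.6 (82.8 to 110) and 112 (96.9 to 129), intervals that met in all libraries. Macrophage-like cells had 1 UMI in sham, 27.3 CPM at day 2 (21.8 to 33.9), 32.7 at day 7 (29.4 to 36.3) and 26.8 in the reversed library (21.1 to 33.6), against 11.02, 7.495 and 7.26 CPM in T cell-like cells. The macrophage-like levels after injury did not differ beyond counting error, with log2 ratios of 0.25 (-0.09 to 0.61) for day 7 against day 2 and -0.28 from day 7 to reversal.

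Mfge8, the bridging protein that links phosphatidylserine to integrins (ENSMUSG00000030605, chromosome 7, 79133768 to 79149060, minus strand), was highest in fibroblast- or mural-like and podocyte-like cells in sham, at day 2 and at day 7, and in fibroblast- or mural-like cells in the reversed library. Fibroblast- or mural-like cells had 1081 CPM in sham (761 to 1489, 10 cells), 418 at day 2 (317 to 542, 18 cells), 196 at day 7 (169 to 225, 90 cells) and 264 in the reversed library (231 to 302, 100 cells). Sham was the highest and day 7 the lowest, and all 4 intervals were apart. However, 14 of the 37 sham UMIs came from 1 cell, without which the sham level was 830 CPM (526 to 1245), an interval that met that of day 2. Without the top cell of each library, day 2 was 371 against 830 CPM in sham, a log2 ratio of -1.16 (-1.91 to -0.37). Podocyte-like cells had 1040, 778, 387 and 136 CPM in the same order, from 9 to 11 cells. Endothelium-like cells had 166 CPM (134 to 204), 208 (176 to 243), 164 (147 to 182) and 154 (136 to 174), with day 2 just above the reversed library and the other intervals meeting.

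In macrophage-like cells Mfge8 was 22.9 CPM in sham (2 UMIs), 24.4 at day 2 (19.1 to 30.6), 16.6 at day 7 (14.2 to 19.2) and 42.6 in the reversed library (35.3 to 50.9), a log2 ratio of 1.31 (0.97 to 1.65) for reversed against day 7. Of the 119 reversed UMIs, 61 came from 1 cell of 20491 UMIs. Without the top cell the reversed level was 20.9 CPM (15.9 to 27.0) and the log2 ratio 0.34 (-0.09 to 0.76). The day 7 level was 1.30-fold (0.79 to 2.29) that of T cell-like cells, an interval that includes 1.

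**Figure D3:**
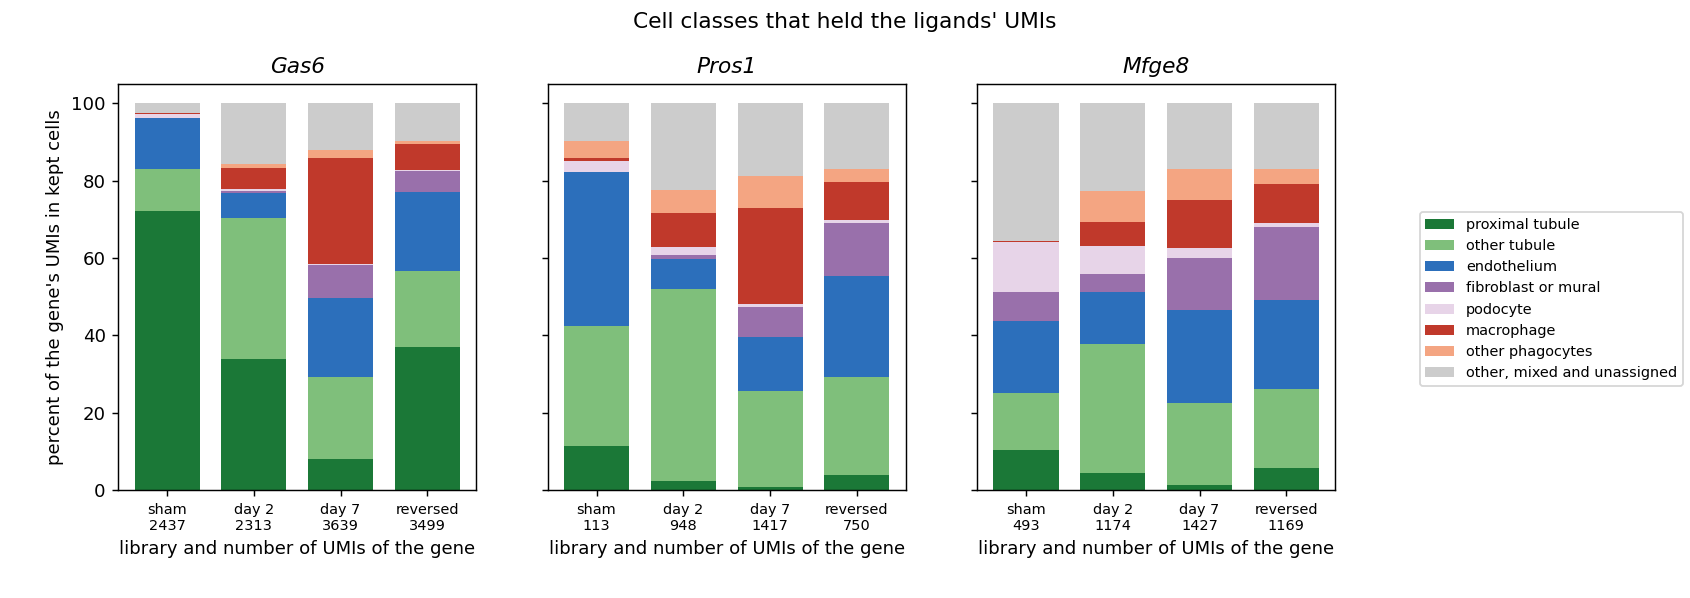
Share of all UMIs of Gas6, Pros1 and Mfge8 in kept cells (percent, from 0 to 100) that each group of classes held in each library, with the number of UMIs of the gene under each bar. The macrophage-like part of Gas6 runs from 0.2% in sham to 27.3% at day 7, and the proximal tubule-like part from 72.0% to 8.1%.

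**Figure D4:**
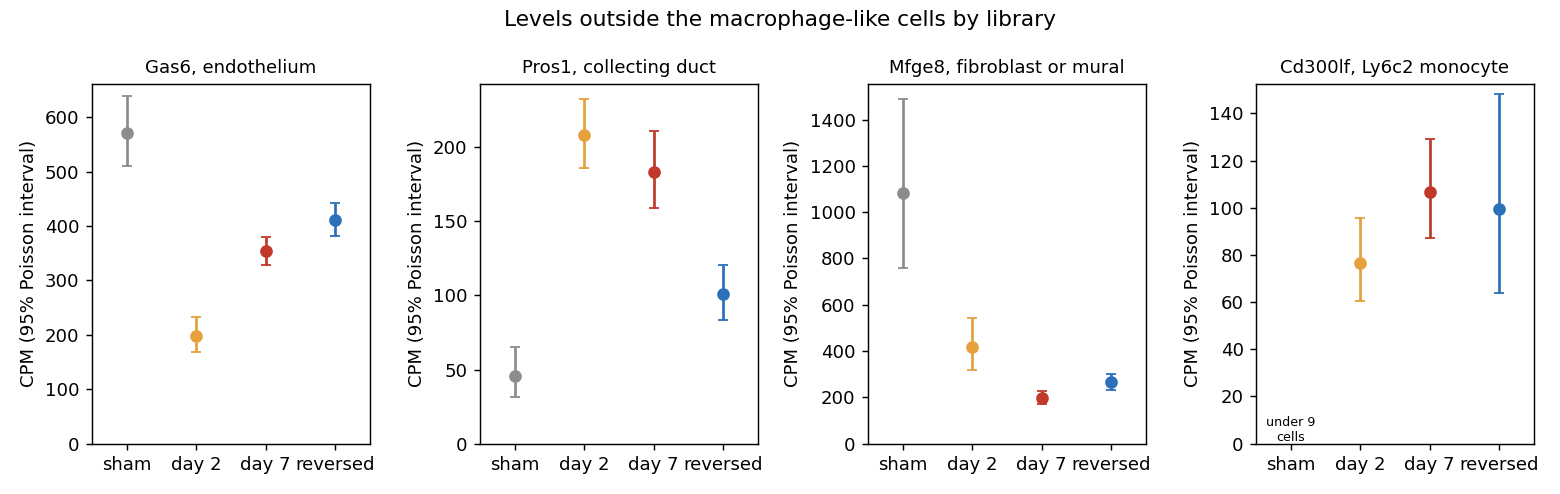
Level of 4 gene and class pairs outside the macrophage-like cells (CPM, linear axis from 0, 95% Poisson intervals) in each library. Gas6 in endothelium-like cells is lowest at day 2, Pros1 in collecting duct-like cells is highest at day 2, and Mfge8 in fibroblast- or mural-like cells is highest in sham.

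The macrophage-like cells were split by single marker genes to see how the members vary within the class, comparing cells with at least 2 UMIs of the marker with cells at 0 UMIs in the same library. Gas6 and Stab1 were high together in cells with Mrc1, the mannose receptor of tissue macrophages. At day 7, 797 cells with Mrc1 had 134 CPM of Gas6 and 264 CPM of Stab1, against 43.3 and 104 CPM in 493 cells without, ratios of 3.09 (2.56 to 3.76) and 2.55 (2.25 to 2.89). At day 2 the ratios were 4.96 (3.04 to 8.48) and 2.42 (1.95 to 3.03), and in the reversed library 2.55 (1.78 to 3.72) and 1.61 (1.30 to 2.00). Median depth was 6556 UMIs with and 5246 UMIs without Mrc1 at day 7, and likewise higher with than without Ccr2 (6815 and 4782), Ccl8 (6548 and 5566) and Mmp12 (9194 and 5728). The part of depth in these splits was not tested. Axl did not follow this split, with ratios of 0.86 (0.68 to 1.08), 0.93 (0.85 to 1.02) and 0.99 (0.84 to 1.18).

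Splitting by Ccr2, the chemokine receptor of recruited monocytes, gave the opposite order for Gas6 and Stab1. At day 2, 177 cells with Ccr2 had 11.7 CPM of Gas6 and 43 cells without had 169 CPM, a ratio of 0.069 (0.044 to 0.11), and 11.7 CPM is at the T cell-like level of 11.02 CPM. At day 7, 1021 cells with Ccr2 had 50.4 CPM of Gas6 and 479 cells without had 191 CPM. The counting intervals of the cells without Ccr2 met on both days (136 to 209 and 175 to 209 CPM), while those of the cells with Ccr2 did not (7.78 to 16.9 and 45.4 to 55.9 CPM). The class was deeper at day 2 than at day 7, so the same UMI limits on Ccr2 do not select the same cells. The Gas6 ratio was 0.26 (0.23 to 0.30) at day 7 and 0.32 (0.24 to 0.43) in the reversed library, and the Stab1 ratio was 0.31 (0.26 to 0.38), 0.33 (0.30 to 0.36) and 0.44 (0.36 to 0.52). Cd300lf went the other way, 3.35-fold (1.38 to 10.6) and 2.85-fold (1.88 to 4.51) higher with Ccr2 at day 2 and day 7, while its reversed ratio of 0.89 (0.51 to 1.56) met 1. Axl was slightly higher with Ccr2 at day 7, 1.19-fold (1.08 to 1.31), and in the reversed library, 1.37-fold (1.17 to 1.61). The day 2 ratio of Axl was 0.91 (0.71 to 1.19), so the low Axl level of day 2 was present in cells with and without Ccr2, at 137 and 150 CPM.

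Cells with Ccl8, a chemokine gene of a subset of tissue macrophages, were high in Gas6 and Stab1 as well. At day 7, 339 such cells had 200 CPM of Gas6 against 53.5 CPM in 1000 cells without, 3.74-fold (3.24 to 4.32), and in the reversed library the ratio was 3.47 (2.64 to 4.56). The Stab1 ratios were 2.46 (2.23 to 2.70) and 1.84 (1.53 to 2.20). Mertk was 1.64-fold (1.14 to 2.33) and 1.79-fold (1.03 to 3.07) higher with Ccl8, at 22.9 against 14.0 CPM and 35.3 against 19.7 CPM.

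Cells with Mmp12, a macrophage elastase, had the reverse pattern. At day 7, 121 such cells had 57.3 CPM of Cd300lf against 18.9 CPM in 1401 cells without, 3.04-fold (2.25 to 4.06), while Gas6 had a ratio of 0.36 (0.26 to 0.49) and Stab1 of 0.53 (0.44 to 0.63). The reversed ratios of Cd300lf, Gas6 and Stab1 were 2.86 (1.63 to 5.01), 0.38 (0.24 to 0.58) and 0.50 (0.38 to 0.64). Axl was 1.36-fold (1.21 to 1.52) higher with Mmp12 at day 7 and had a ratio of 0.99 (0.83 to 1.18) after reversal. Mfge8 after reversal was 2.15-fold (1.21 to 3.76) higher with Mmp12, leaving out the single cell named above, and 7.60-fold with it. Cells with Cxcl9, an interferon-induced chemokine, had lower Gas6 at day 7, with a ratio of 0.44 (0.30 to 0.61), and lower Stab1, with a ratio of 0.36 (0.27 to 0.46).

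**Figure D5:**
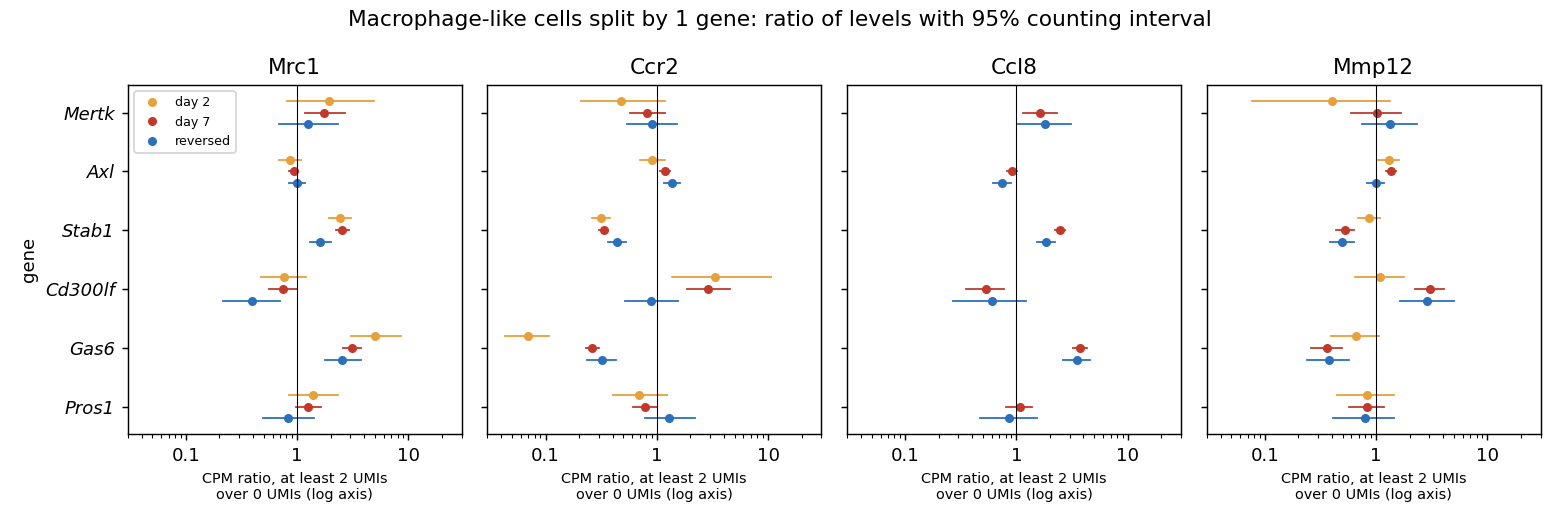
Ratio of the level of 6 of the genes in macrophage-like cells with at least 2 UMIs of Mrc1, Ccr2, Ccl8 or Mmp12 to the level in cells with 0 UMIs of it (log axis, points with 95% counting intervals, day 2, day 7 and reversed). Gas6 and Stab1 lie above 1 for Mrc1 and Ccl8 and below 1 for Ccr2, and Axl lies near 1 in most panels. Ccl8 has no day 2 point.

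The members past 2-fold in macrophage-like cells were counted beside the share of all genes past 2-fold. A gene was counted as higher or lower at a ratio of at least 2 on the (CPM + 1) scale if it had at least 30 UMIs over both libraries, and 7 of the 8 genes met that minimum, Timd4 being the exception. For day 2 against sham, 3 of 7 were higher, beside 30.5% of 7377 genes, and 0 were lower, beside 10.6%. The 3 were Mertk, Cd300lf and Pros1, with 0, 0 and 1 sham UMIs, and their day 2 levels lie under the sham floor of 34.4 CPM, so no fold is given. A gene at 0 UMIs in sham met the minimum only through the other library and had to be counted as higher, which holds for Mertk and Cd300lf and for 1223 of the 2250 higher genes, so nothing is read from this count. For day 7 against day 2, 1 of 7 was higher (Gas6), beside 10.3% of 10931 genes, and 0 were lower, beside 5.39%. For reversed against day 7, 1 of 7 was higher (Mfge8, with the single cell named above), beside 2.32% of 11020 genes, and 0 were lower, beside 1.78%. For reversed against sham, the same 3 genes as at day 2 were higher, beside 26.1% of 7428 genes, and 0 were lower, beside 7.42%. Here too 2 of the 3, and 1119 of the 1939 higher genes, had 0 UMIs in sham, and nothing is read from the count. With all phagocyte classes pooled, neither Pros1 (log2 ratio 0.11 for day 2 against sham) nor Mertk (0.51) was past 2-fold at day 2. Past it were Stab1 (111 against 37.4 CPM), Cd300lf (43.3 against 16.6 CPM) and Mfge8 (31.95 against 8.32 CPM). For reversed against sham with that pooling, Stab1 (125 against 37.4 CPM), Gas6 (57.7 against 25.0 CPM), Mertk (15.4 against 4.16 CPM) and Mfge8 (35.8 against 8.32 CPM) were past 2-fold. Cd300lf was not (log2 ratio 0.63), and Pros1 was lower than in sham. The pooled sham levels of Mertk and Mfge8 rest on 1 and 2 UMIs, and the reversed Mfge8 level includes the single cell named above. The median log2 ratio of the members was 0.25 against 0.04 over all genes for day 7 against day 2, and 0.05 against -0.03 from day 7 to reversal. Both comparisons with sham use the same 30 sham cells.

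The other genes of the pathway, a list of 68 that holds further receptors, bridging and eat-me molecules, find-me signals, engulfment machinery, cargo handling and nuclear receptors, had shares past 2-fold near those of all genes. Higher were 23.4%, 6.78%, 1.69% and 20% of those tested, and lower 8.51%, 5.08%, 3.39% and 8%, in the order of the 4 comparisons above, beside the shares of all genes given there. Of 47 tested for day 2 against sham, 11 were higher and 4 lower. The higher ones included Thbs1 (thrombospondin-1, a bridging molecule) at 48.4 CPM and Cd24a (a restraint signal on the target cell) at 50.7 CPM against 0 UMIs in sham, and nothing is read from genes at 0 in sham, as above. Trem2, a lipid-sensing receptor, was 246 against 103 CPM, with a log2 ratio of 1.25 (0.32 to 2.38), and Anxa1, an annexin released by dying cells, was 158 against 22.9 CPM (2 UMIs). Of the 11 higher genes, 5 had 0 UMIs in sham, among them the glucose transporter Slc2a1, whose 26.7 CPM at day 2 is under the sham floor. The largest differences downward were in the lipid-sensing nuclear receptors Pparg, 14.2 against 45.8 CPM with a log2 ratio of -1.63 (-2.93 to 0.24), and Nr1h2, 35.9 against 103 CPM with -1.50 (-2.44 to -0.35), and in the engulfment adaptor Elmo2, -1.06 (-2.38 to 0.81). These rest on 4, 9 and 4 sham UMIs, and the intervals of Pparg and Elmo2 include 0.

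For day 7 against day 2, 4 of 59 tested were higher and 3 lower. Abcg1, a sterol exporter used after engulfment, was higher at 71.0 against 29.6 CPM, a log2 ratio of 1.23 (0.92 to 1.56), and its partner Abca1 was at 60.1 against 29.6 CPM, 1.00 (0.68 to 1.33), just under the 2-fold count. Thbs1 and Anxa1 were lower, at 21.5 against 48.4 CPM and 77.6 against 158 CPM, with log2 ratios of -1.13 (-1.42 to -0.84) and -1.02 (-1.18 to -0.86). Havcr1 (TIM-1), a receptor of injured tubule, had only 6.43 against 2.30 CPM, and 2 other genes of this rank were as sparse: the inhibitory lectin Siglecg at 3.26 against 0.66 CPM and Timd2 (TIM-2) at 2.52 against 6.91 CPM.

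For reversed against day 7, 1 of 59 was higher and 2 were lower. The higher one was Cd36, a scavenger receptor for oxidised lipid and phosphatidylserine, at 136 against 62.4 CPM, a log2 ratio of 1.11 (0.92 to 1.29). The lower ones included Havcr1, with 2 against 69 UMIs. Under the 2-fold count but with intervals above 0 were Trem2 at 286 against 166 CPM, 0.78 (0.66 to 0.90), Lrp1, an engulfment receptor, at 88.4 against 53.7 CPM, 0.71 (0.49 to 0.92), and Lgals3 (galectin-3) at 1401 against 803 CPM, 0.80 (0.75 to 0.86). Nr1h3, the sterol-sensing receptor LXR alpha, was at 21.8 against 11.7 CPM, 0.85 (0.41 to 1.29), and the find-me chemokine Cx3cl1 at 3.22 against 6.80 CPM, -0.89 (-1.69 to -0.07). For reversed against sham, 10 of 50 were higher and 4 lower, and 5 of those 10 had 0 UMIs in sham. Havcr2 (TIM-3), Cd24a and Thbs1, with 33.6, 23.3 and 17.5 CPM in the reversed library and 0 UMIs in sham, were all under the sham floor. Nr1h2 and Elmo2 were again among the lowest, with log2 ratios of -1.41 (-2.35 to -0.26) and -1.26 (-2.58 to 0.62), beside the nuclear receptor Ppard at -1.59 (-3.03 to 0.66). The list's median log2 ratio was 0.01 against 0.04 over all genes for day 7 against day 2 and 0.13 against -0.03 from day 7 to reversal.

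The genes with the profile most like each member were found by Pearson's r of log2(CPM + 1) over 39 profiles of a class in a library, among 13500 genes. These profiles share libraries, and depth and background run through them, so r is a description. Axl was most like Slc15a3 (0.88), Dse (0.87) and Lpcat2 (0.87), and Stab1 most like Il10rb (0.84), Ifnar2 (0.84) and Bst2 (0.82). Cd300lf was most like Ccr1 (0.93), Emilin2 (0.91) and Fgr (0.90), and Mertk most like Myo7a (0.81), Tfpi (0.80) and Pld1 (0.80). Among the ligands, Gas6 was most like Smim10l1 (0.89), Zfp503 (0.89) and Scoc (0.87), Pros1 like Tsen34 (0.82), Morf4l2 (0.82) and Mrfap1 (0.81), and Mfge8 like Mdfi (0.85), Sspn (0.84) and Tax1bp3 (0.81). Between members, r was 0.60 for Axl and Stab1, 0.59 for Gas6 and Mertk, 0.55 for Pros1 and Mfge8, 0.55 for Axl and Cd300lf and -0.66 for Gas6 and Cd300lf. Timd4 was under 10 CPM in every profile and was not ranked.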

How the data were processed

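For each of the 4 droplet libraries (10x 3' chemistry, live cells sorted with DAPI, per the labels' protocols) the authors deposited a matrix of unnormalized counts of UMIs. Cell Ranger, STAR and GRCm38 are named per the submitters' processing notes, versions not given in the sources used here. A Smart-seq2 library of all time points was not used here.

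Cells with under 200 genes or over 50% mitochondrial UMIs were left out. Each cell was scored on marker lists for 19 classes and assigned at a score of at least 0.25, a lead of 0.1 and at least 2 markers. Mixed cells (58 to 352 per library) and unassigned cells were left out of the classes, which is how doublets were treated, with no doublet caller run. Gate settings were set after cells were seen. UMIs were summed per class and library and divided by the class total (CPM), and ratios used a pseudocount of 1 CPM. With 1 library per group there was no test across samples, so edgeR 4.0.16 (TMM factors) and DESeq2 1.42.0 (size factors) served only as alternative scalings. Class ratios are conditional binomial intervals from scipy 1.17.1. The calling step was tested on simulated Poisson counts, with changes planted only in genes that had enough expected UMIs. That test does not cover genes with few UMIs, such as most members in sham, or UMIs held largely by 1 cell.

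The members and lists were chosen with earlier results of these data known. All members were described, with the 3 genes most like each. From the pathway list, the 3 largest differences in each direction in each comparison were named, and Trem2, Lrp1, Abca1 and Anxa1 at day 2 were added after their values were seen. Some items covered by these rules are not reported here. Gene positions are from GENCODE M21, and promoter sequences from RefSeq.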

Additional observations from a re-analysis of the deposited data

How the results depend on the processing

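No paired analysis was possible because each group has 1 library, and for the same reason no library could be left out in turn. Of 104 counts of members past 2-fold, 91 stayed within 1.5 times the main count and 13 moved. For day 2 against sham, the count of lower members was 1 (Axl) in place of 0 with a limit of 20% mitochondrial UMIs, with the T cell-like CPM subtracted, with C1q left out of the gate and with a stricter gate, and 1 (Gas6) with close cells given to their best class. For day 7 against day 2, the count of higher members was 0 in place of 1 with a pseudocount of 10 CPM or a stricter gate, and the count of lower members was 1 (Mfge8) in place of 0 with the T cell-like CPM subtracted. For reversed against day 7, the count of higher members was 0 in place of 1 with a pseudocount of 10 CPM, with each cell counted equally, with the deepest 5% of cells left out, with all phagocyte classes pooled and with the cell with the most UMIs of each member left out. The last 2 settings and the assignment of close cells were chosen after seeing the data. Of 336 log2 ratios, 322 were counted as within their counting interval and 1 as reversed. That was Pros1 for reversed against sham, at -0.21 with all phagocyte classes pooled against 1.16 (-1.13 to 6.43), a value that rests on 1 sham UMI. The ratios of Mertk and Cd300lf against sham, with 0 sham UMIs, had no bounded interval and could not be counted as moved. With all phagocyte classes pooled, Mertk for day 2 against sham was 0.51 in place of 3.49. Cd300lf for reversed against sham was 0.63 in place of 4.49. The sign also turned with that pooling, without being counted as reversed, for Gas6 at day 2 against sham (28.9 against 25.0 CPM). The same held for Stab1 in the reversed library against day 7 (125 against 136 CPM). The causes were not tested, except that 1 cell held 61 of the 119 Mfge8 UMIs. Of 336 levels by class 31 moved, and of 84 shares of macrophage-like cells with a UMI 44 moved when the thinning depth changed or thinning was left out. The mean over all draws, chosen after seeing the data and given in the text, moved 0 of 28 shares against a single draw. TMM factors shifted the median of all genes by 0.18 and DESeq2 factors by 0.15 (log2) for day 2 against sham, and neither changed a count. Against sham, the counting intervals are wide in the small sham classes, the macrophage-like cells among them.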
